A study of Mus musculus with 6 samples.

Results

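The circadian output regulators are 9 genes that carry the rhythm of the hepatic clock to its targets: Dbp, Tef, Hlf, Nfil3, Bhlhe40, Bhlhe41, Ciart, Usp2 and Wee1. They were taken by symbol from the 22851 genes of the deposited matrix, where all 9 were found. Neither the table nor the labels name the unit, and the values were read here as FPKM, which are scaled by transcript length and library size; the comparisons of level between genes below hold only if they are. Of the 9 genes, 8 were above 1 FPKM in at least 3 libraries and entered the test, and Bhlhe41 did not.

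The tested livers came from 2 groups of male C57BL/6J mice, an inbred strain, all kept on a high-fat diet. The first received ONX-0914, an inhibitor of the immunoproteasome subunit PSMB8, at 10 mg/kg under the skin every other day for 6 weeks, and gave 3 libraries (ONX-0914 1, 3 and 4). The second received vehicle and gave 3 libraries (vehicle 1, 2 and 4). The design text gives 2 animals per group, so which libraries are separate animals is not settled and p-values measure the spread between libraries. Age and the time of day at collection are not given in the sources used here, and the part of sampling time in any value below was not tested.

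In mouse liver the core clock is a loop in which BMAL1 (from Arntl) and CLOCK activate genes through E-boxes, while PER and CRY proteins close the loop and REV-ERB and ROR receptors set a second arm. DBP, TEF and HLF are the PAR bZIP activators, which bind D-boxes, and NFIL3 (E4BP4) represses from the same sites. BHLHE40 and BHLHE41 (DEC1 and DEC2) and CIART (CHRONO) repress E-box activation. USP2 is a ubiquitin protease with rhythmic transcripts, and WEE1 is the kinase that places inhibitory phosphate on CDK1 and links the clock to mitosis. In normal liver many of these transcripts swing widely within a day, Dbp among the most.

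Promoter windows of 7 of the 9 genes were matched in RefSeq (GRCm38.p6), from 250 bases before to 50 bases after a start site. They were searched on both strands for the E-box CACGTG, the D-box forms TTATGTAA and TTACGTAA, and the hexamer AGGTCA, the core of sites that ROR and REV-ERB receptors bind (its flank was not searched), and no matches overlapped. The windows shown are those of tested genes that hold a match, and that of Hlf, because its fall was the one that held in every setting. Capitals mark a match, and lower case the rest:
Ciart (chr3:95882179-95882478, minus strand): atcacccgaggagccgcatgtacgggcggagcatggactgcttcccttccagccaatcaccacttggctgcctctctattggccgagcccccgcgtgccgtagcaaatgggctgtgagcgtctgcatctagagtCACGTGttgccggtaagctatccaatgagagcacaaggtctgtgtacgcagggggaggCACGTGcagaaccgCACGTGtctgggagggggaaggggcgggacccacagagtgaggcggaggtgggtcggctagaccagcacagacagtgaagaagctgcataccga
Tef, upstream start (chr15:81802423-81802722, plus strand): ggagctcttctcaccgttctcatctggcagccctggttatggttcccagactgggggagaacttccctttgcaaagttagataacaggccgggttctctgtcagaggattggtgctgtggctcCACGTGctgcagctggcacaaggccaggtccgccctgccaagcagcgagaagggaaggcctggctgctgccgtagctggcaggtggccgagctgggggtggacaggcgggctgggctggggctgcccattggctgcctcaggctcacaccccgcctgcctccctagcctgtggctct
Tef, downstream start (chr15:81811164-81811463, plus strand): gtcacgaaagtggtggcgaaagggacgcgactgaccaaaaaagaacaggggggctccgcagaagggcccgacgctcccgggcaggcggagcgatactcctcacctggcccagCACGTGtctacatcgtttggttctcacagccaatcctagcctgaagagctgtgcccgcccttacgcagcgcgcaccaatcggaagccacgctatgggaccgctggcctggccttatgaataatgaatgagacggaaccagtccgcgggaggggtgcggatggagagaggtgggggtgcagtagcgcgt
Nfil3 (chr13:52980990-52981289, minus strand): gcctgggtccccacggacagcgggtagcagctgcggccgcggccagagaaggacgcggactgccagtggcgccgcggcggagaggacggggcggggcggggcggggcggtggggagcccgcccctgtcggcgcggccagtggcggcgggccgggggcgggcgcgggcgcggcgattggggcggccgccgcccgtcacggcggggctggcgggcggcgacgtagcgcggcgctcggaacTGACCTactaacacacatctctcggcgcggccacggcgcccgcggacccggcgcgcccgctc
Hlf (chr11:90390868-90391167, minus strand): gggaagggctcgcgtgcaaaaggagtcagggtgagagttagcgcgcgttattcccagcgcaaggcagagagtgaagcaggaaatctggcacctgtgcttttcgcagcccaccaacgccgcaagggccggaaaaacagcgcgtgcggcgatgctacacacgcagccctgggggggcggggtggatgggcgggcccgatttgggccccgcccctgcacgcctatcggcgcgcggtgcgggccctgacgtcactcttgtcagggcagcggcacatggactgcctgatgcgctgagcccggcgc

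The Ciart window held 3 E-boxes, at 116, 58 and 44 bases before the start. Among all 32851 windows of this length, 29 held 3 or more (0.0883%), and 7.15% held at least 1. Each of the Tef windows held 1 E-box, at 127 bases before the upstream start and 138 bases before the downstream one. The Bhlhe41 window, not shown, held 1 E-box at 153 bases before the start, and the Dbp, Usp2 and Hlf windows held no match. The Usp2 window (chr9:44084670-44084969, plus strand) lies inside the gene, which starts at 44067021, and no window at that upstream end was searched. The Nfil3 window held 1 match to the hexamer, written TGACCT on the gene's strand, 12 bases before the start; 16.3% of all windows held one. No window of a member held a D-box form, which 1.06% of all windows did. A match is letters only, and nothing about binding was measured.

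The libraries differed in ways that touch each gene below. The deposited values summed to 1041391 to 1247789 in ONX-0914 libraries and 993264 to 1074027 in vehicle libraries. Ratios of low values between libraries, and steps between low values of short genes, put the depth at about 12.9 to 14.8 M fragments for ONX-0914. For vehicle libraries they gave about 14.8 to 18.8 M (M, 1e6). The median of all 10743 genes tested had a log2 fold change of -0.64, and 4673 genes (43.5%) were called lower against 275 (2.56%) higher, with limma at an adjusted p under 0.05. The deviation from the vehicle mean of genes in the top quartile of transcript length, minus that of the bottom quartile, was -0.93, -0.25 and -0.99 (log2) in ONX-0914 1, 3 and 4, whereas vehicle 1, 2 and 4 had 0.0387, -0.00589 and -0.0315. The first principal component placed ONX-0914 3 at 10.6, apart from ONX-0914 1 and 4 at 73.95 and 67.81, with vehicle libraries at -56.07 to -47.2. The 10 hepatocyte markers summed to 76900 to 110000 FPKM with ONX-0914 and 96000 to 102000 with vehicle (4 lower, 2 higher). The 4 lower were Apob, Hnf4a, Cps1 and Ass1, and the 2 higher were Fgb and Apoa1 (log2 fold changes of 1.17 and 0.64). Alb was not called (adjusted p = 0.0669 by limma), at 17654 to 36265 FPKM with ONX-0914 and 44524 to 47971 with vehicle. The sum of 8 endothelial markers was 18.4 to 32.4 FPKM with ONX-0914 and 132 to 138 with vehicle, and 8 of 8 were called lower. The sum of 8 Kupffer cell and macrophage markers was 570 to 806 against 1170 to 1830 (5 of 8 lower), and that of 8 stellate cell and fibroblast markers 58.5 to 128 against 257 to 329 (6 of 8 lower). Neutrophil markers (5 genes, none called) summed to 181 to 4400 with ONX-0914 and 300 to 1820 with vehicle, and Ly6g was at 0 in ONX-0914 3. Cholangiocyte markers (5 genes, 4 tested, 1 lower) summed to 72.0 to 123 and 72.8 to 77.8, and lymphocyte markers (7 genes, 3 tested, none called) to 5.94 to 10.8 and 6.69 to 8.66, with Cd3e, Ms4a1 and Cd79a each at 0 in at least 1 library. Among the markers called lower, Kdr and Tek (endothelial), Pdgfrb (stellate) and Sox9 (cholangiocyte) were above 1 FPKM in vehicle libraries only. They entered the test through the group where they were high. The part of these cell markers in the values of the 9 genes was not tested. In bulk tissue, fewer cells of a type and less RNA per cell cannot be told apart.

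With the values as deposited, 4 of the 8 tested output regulators fell in ONX-0914 livers (Hlf, Wee1, Bhlhe40 and Tef) and none rose. Since 43.5% of all genes tested were called lower and 2.56% higher, 4 of 8 is close to the background share, and it includes Wee1, which passed the filter on low values through vehicle libraries only. The median log2 fold change of the 8 genes was -0.93, beside -0.64 over all genes tested. Hlf was the one whose fall passed the test in all 15 alternative settings.

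**Figure D1:**
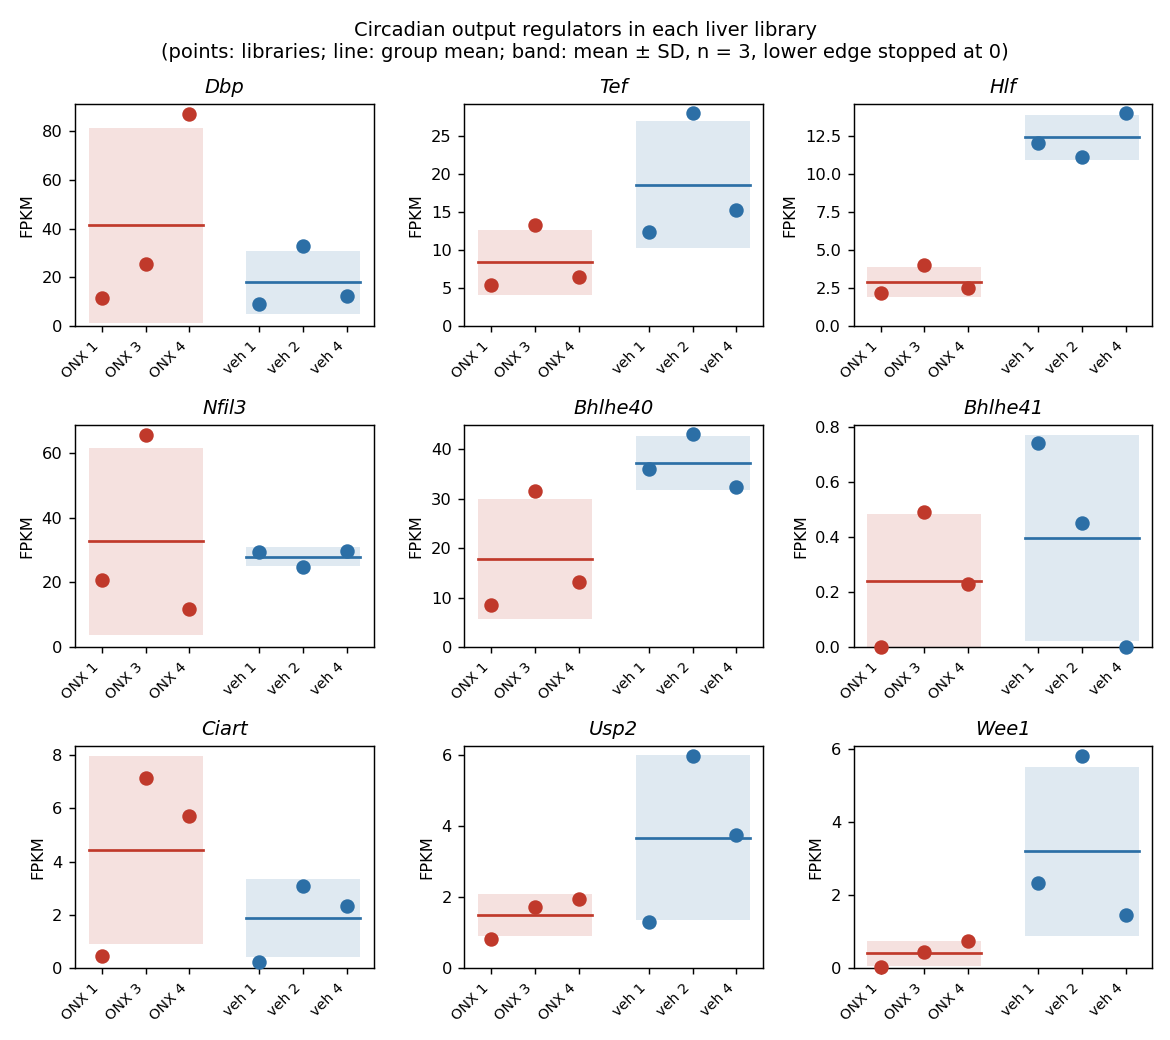
FPKM of each of the 9 genes (vertical axes, linear from 0) in the 3 ONX-0914 libraries (red, left) and the 3 vehicle libraries (blue, right); points are libraries, lines group means and bands the mean ± SD (n = 3). The Hlf points form 2 tight groups, at 2.16 to 4.02 with ONX-0914 and 11.1 to 14.0 with vehicle, while Dbp, Nfil3 and Ciart spread over several-fold ranges within the treated group.

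Among the PAR bZIP activators, Hlf fell, Tef fell as deposited, and Dbp did not pass the test. Hlf, on chromosome 11 from 90336536 to 90390895 of GRCm38, had 2.16, 4.02 and 2.5 FPKM in ONX-0914 1, 3 and 4, against 12.1, 11.1 and 14.0 FPKM in vehicle 1, 2 and 4. The groups did not overlap, and the libraries within each lay close together. The means were 2.89 ± 0.99 FPKM with ONX-0914 and 12.4 ± 1.48 FPKM with vehicle (SD, n = 3 each), so the ONX-0914 mean was 0.233 of the vehicle mean. Its log2 fold change was -1.81 (SE 0.27, adjusted p = 0.00217 by limma). Hlf was at -1.12 when libraries were scaled by median ratio (a factor per library from the typical gene, adjusted p = 0.013 by limma). With each library's trend over transcript length removed it was at -0.88 (adjusted p = 0.0183 by limma). ONX-0914 3, the treated library nearest to vehicle on the first principal component, gave -1.41 for Hlf when set alone against vehicle (adjusted p = 0.00454 by limma), with the spread taken from the vehicle libraries.

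Tef, the thyrotroph embryonic factor gene on chromosome 15 from 81802421 to 81826863, had 5.38, 13.3 and 6.50 FPKM in ONX-0914 1, 3 and 4, against 12.3, 28.1 and 15.3 FPKM in vehicle 1, 2 and 4. ONX-0914 3 lay above vehicle 1, so the groups overlapped, and vehicle 2 was the highest of all. The log2 fold change was -1.07 (SE 0.39, adjusted p = 0.0465 by limma), close to the threshold. The call was lost in 11 of the 15 alternatives, among them leaving out any 1 library other than ONX-0914 3. Median-ratio scaling gave -0.33 (adjusted p = 0.483 by limma), and removing the length trend gave -0.18 (adjusted p = 0.709 by limma).

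Dbp, the D-site binding protein gene on chromosome 7 from 45705088 to 45710203, had 11.6, 25.5 and 86.9 FPKM in ONX-0914 1, 3 and 4, against 9.14, 32.8 and 12.2 FPKM in vehicle 1, 2 and 4. ONX-0914 4 was the highest library and vehicle 2 the next, and the groups overlapped. The treated libraries spanned a 7.47-fold range and the vehicle libraries a 3.59-fold range. The log2 fold change of 0.90 (SE 0.66, adjusted p = 0.282 by limma) was within that spread. Exons of Dbp share 539 bases with Sphk2 on the opposite strand, and the sources used here do not say whether counting used strand. Sphk2 itself had 8.33, 7.19 and 12.9 FPKM in ONX-0914 1, 3 and 4, against 19.3, 19.3 and 13.3 FPKM in vehicle 1, 2 and 4. The part of Sphk2 reads in the Dbp values was not tested. Exons of Bhlhe41, Usp2, Tef and Bhlhe40 also share 1280, 200, 193 and 118 bases with an opposite-strand gene that is not in the matrix. The part of such genes in these values was not tested either.

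Nfil3, the repressor at D-boxes, lay on both sides of vehicle among the treated libraries. It lies on chromosome 13 from 52967209 to 52981073 and had 20.6, 65.7 and 11.7 FPKM in ONX-0914 1, 3 and 4, against 29.5, 24.65 and 29.7 FPKM in vehicle 1, 2 and 4. ONX-0914 1 and 4 were below all vehicle libraries and ONX-0914 3 was above them all. Vehicle values were tight (28.0 ± 2.87 FPKM, n = 3), while treated values were not (32.7 ± 29.0 FPKM, n = 3). Over the 6 libraries the log2 fold change was -0.13 (SE 0.50, adjusted p = 0.84 by limma). Without ONX-0914 3, Nfil3 fell, at -0.80 (adjusted p = 0.0191 by limma, where 60.6% of all genes were called lower and 6.89% higher). ONX-0914 3 alone against vehicle, a single library with the highest Nfil3 value and with the spread taken from the vehicle libraries only, gave 1.21 (adjusted p = 0.00514 by limma, where 2.88% of all genes were called higher and 27.9% lower). Its sign was not stable: it was 0.0103 without ONX-0914 1 and 0.40 without ONX-0914 4, and it was also positive after median-ratio scaling (0.65, adjusted p = 0.269 by limma) or once the length trend was taken out (0.39, adjusted p = 0.572 by limma).

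REV-ERBα, the receptor encoded by Nr1d1, represses Nfil3, and the ROR receptors compete for its sites. Nr1d1 had 7.57, 25.9 and 6.08 FPKM in ONX-0914 1, 3 and 4, against 12.8, 5.64 and 7.43 FPKM in vehicle 1, 2 and 4. It was not called (0.36, adjusted p = 0.561 by limma). ONX-0914 3 was the highest library for both genes, and also for Per1 (8.82 FPKM) and Coq10b (52.1 FPKM). A link between Nr1d1 and Nfil3 was not tested.

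Ratios within a library depend little on a factor per library, but a trend over transcript length can move them. The longest transcripts of Hlf and Tef have 5642 and 4403 bases, and that of Nfil3 has 2026. The part of transcript length in the ratios was not tested. In all, 4 ratios were compared with an exact two-sided permutation test over samples, whose smallest possible p with 3 against 3 is 0.1. The log2 ratio of Hlf to Nfil3, each as FPKM + 1, was -2.77, -3.73 and -1.86 in ONX-0914 1, 3 and 4, whereas vehicle 1, 2 and 4 had -1.23, -1.08 and -1.03. All treated libraries were below all vehicle libraries, with a difference of -1.67 (exact permutation p = 0.1, the smallest it can give, and 0.4 adjusted over the 4 ratios). The ratio of Tef to Nfil3 differed by -0.94 (exact permutation p = 0.3, adjusted 0.4) and overlapped between groups. For Dbp to Nfil3 the log2 ratio was -0.78, -1.33 and 2.79 in ONX-0914 1, 3 and 4, whereas vehicle 1, 2 and 4 had -1.59, 0.40 and -1.22. ONX-0914 4, with the highest Dbp and the lowest Nfil3, set the difference of 1.03 (exact permutation p = 0.6, adjusted 0.6), which was -0.25 without it. The remaining ratio, Bhlhe40 to Bhlhe41, differed by -1.05 (exact permutation p = 0.2, adjusted 0.4), but Bhlhe41 values near 0 make it mostly a reading of Bhlhe40.

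**Figure D2:**
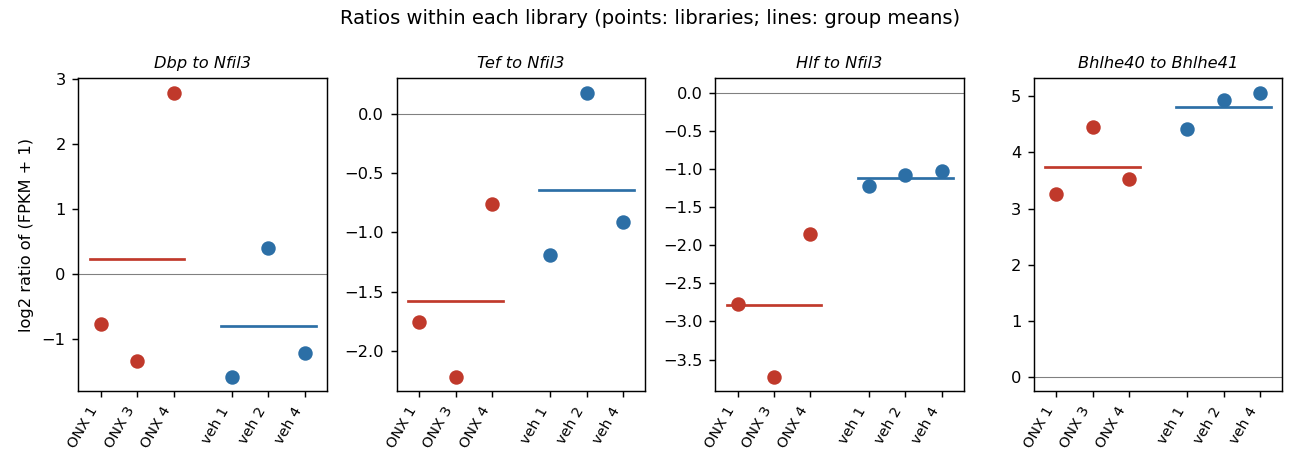
Log2 ratios of FPKM + 1 between gene pairs (vertical axes) within each library, ONX-0914 in red at left and vehicle in blue at right; lines are group means (n = 3). In the Hlf to Nfil3 panel the treated points (-3.73 to -1.86) lie below the vehicle points (-1.23 to -1.03), and in the Dbp to Nfil3 panel ONX-0914 4 alone stands at 2.79.

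The E-box repressors differed in level by a wide margin. Bhlhe40, on chromosome 6 from 108660629 to 108666925, was the most abundant of the 9 genes in vehicle livers. It had 8.58, 31.7 and 13.2 FPKM in ONX-0914 1, 3 and 4, against 36.0, 43.1 and 32.4 FPKM in vehicle 1, 2 and 4. The groups did not overlap, but ONX-0914 3 lay just under vehicle 4. Bhlhe40 fell as deposited, with a log2 fold change of -1.21 (SE 0.40, adjusted p = 0.0347 by limma). The call was lost in 10 of 15 alternatives, among them leaving out any 1 library other than ONX-0914 3, where it was at -1.70 (adjusted p = 0.000361 by limma). In ONX-0914 3 alone against vehicle it was at -0.22 (adjusted p = 0.453 by limma), and with median-ratio scaling at -0.43 (adjusted p = 0.351 by limma).

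Bhlhe41, also on chromosome 6, from 145858243 to 145865558, was below 1 FPKM in every library. It had 0, 0.49 and 0.23 FPKM in ONX-0914 1, 3 and 4, against 0.74, 0.45 and 0 FPKM in vehicle 1, 2 and 4, so each group held a library at 0. Its values above 0 correspond to about 42 and 21 fragments in ONX-0914 3 and 4, and about 74 and 57 in vehicle 1 and 2. With no filter on low values Bhlhe41 was at -0.15 on the log2 scale (SE 0.22, adjusted p = 0.624 by limma).

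Ciart, the CHRONO gene with 3 E-boxes in its window, lies on chromosome 3 from 95878503 to 95882251. It had 0.46, 7.16 and 5.73 FPKM in ONX-0914 1, 3 and 4, against 0.24, 3.07 and 2.35 FPKM in vehicle 1, 2 and 4. Each group held 1 library near 0 and 2 well above it, and the 2 highest libraries were treated. The low value of ONX-0914 1 corresponds to about 15 fragments and that of vehicle 1 to about 8, so neither is well measured. The log2 fold change was 0.75 (SE 0.65, adjusted p = 0.361 by limma). Without ONX-0914 1, Ciart rose, at 1.53 (adjusted p = 0.0474 by limma, where 141 of 10743 genes were called higher and 3197 lower). Vehicle 1, also low, stayed in that fit. Without vehicle 1 Ciart was at 0.22 (adjusted p = 0.815 by limma), and without ONX-0914 3 at 0.29 (adjusted p = 0.715 by limma).

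Usp2, on chromosome 9 from 44067021 to 44095627, had 0.81, 1.72 and 1.94 FPKM in ONX-0914 1, 3 and 4, against 1.31, 5.96 and 3.73 FPKM in vehicle 1, 2 and 4. Vehicle 1 was below 2 of the 3 treated libraries, so the groups overlapped. Its log2 fold change of -0.80 (SE 0.40, adjusted p = 0.122 by limma) passed the test without vehicle 1, at -1.24 (adjusted p = 0.0362 by limma). With the length trend removed it was 0.0605 (adjusted p = 0.932 by limma).

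Wee1, on chromosome 7 from 110122046 to 110143286, had 0.03, 0.44 and 0.73 FPKM in ONX-0914 1, 3 and 4, against 2.33, 5.80 and 1.45 FPKM in vehicle 1, 2 and 4. The groups did not overlap. Wee1 was above 1 FPKM in vehicle libraries only, so it entered the test through the group where it was high and had to differ. The treated values correspond to about 1.5, 19 and 33 fragments. Wee1 fell as deposited, with a log2 fold change of -1.48 (SE 0.37, adjusted p = 0.0118 by limma). Median-ratio scaling left it at -1.08 (adjusted p = 0.0618 by limma) and removal of the length trend at -0.66 (adjusted p = 0.231 by limma). Quantile normalization gave -0.70 (adjusted p = 0.199 by limma) and ONX-0914 3 alone -1.41 (adjusted p = 0.0715 by limma), and the call was lost in these 4 alternatives.

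Hlf, Bhlhe40 and Wee1 were the members whose groups did not overlap, all lower with ONX-0914; the same held for 53.5% of all genes tested, and 4.93% were higher without overlap. With median-ratio scaling 1 of 8 output regulators (Hlf) was called lower and none higher, while 13.7% of all genes were lower and 14.3% higher. The median of the 8 was then -0.29, beside 0.0034 over all genes tested. With the length trend removed the count was again 1 of 8 lower (Hlf) and none higher, while 11.4% of all genes were lower and 9.68% higher. Their median was then -0.0594, beside 0.0268 over all genes tested. The longest protein-coding transcripts (GENCODE M21) of the genes called as deposited have 5642 (Hlf), 4403 (Tef), 3419 (Wee1) and 3113 bases (Bhlhe40), all above the median of 2906 bases over the tested genes. Those of Usp2, Nfil3, Ciart and Dbp, which were not called, have 3867, 2026, 1939 and 1837 bases. The 3 shortest of these 8 genes are the ones whose log2 fold change was above that of all the others. Usp2, not called, has a longer transcript than Wee1 and Bhlhe40, which were called. The part of transcript length in these calls and fold changes was not tested.

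**Figure D3:**
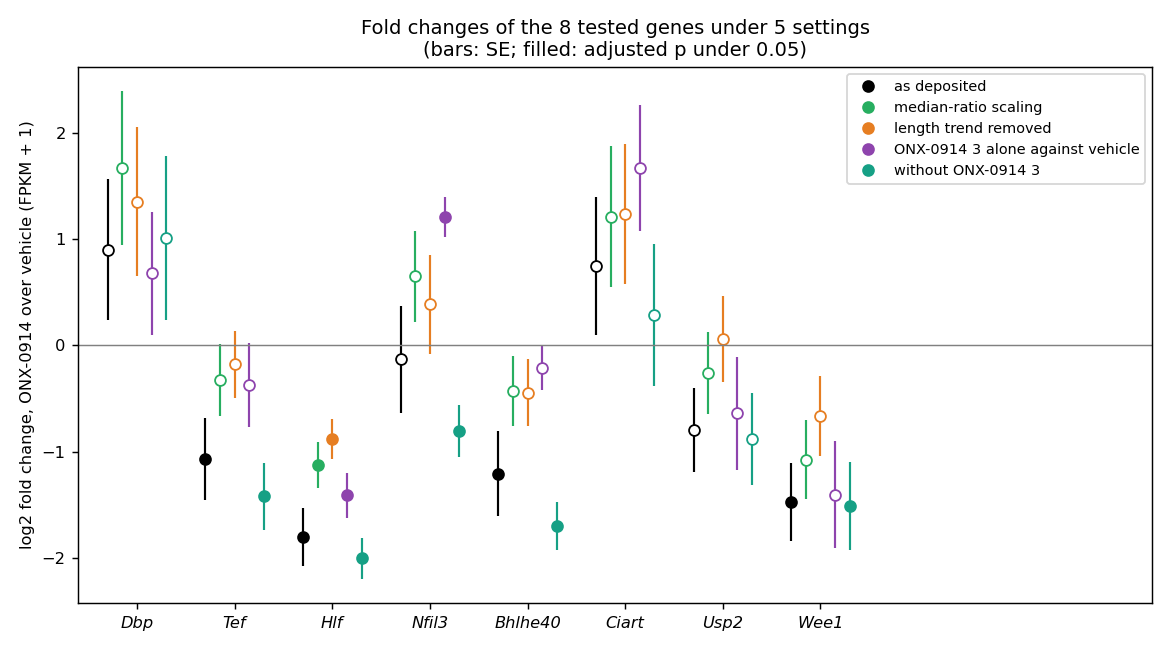
Log2 fold change of ONX-0914 over vehicle on the FPKM + 1 scale (vertical axis) with its SE for the 8 tested genes under 5 settings (colours); filled points have a limma adjusted p under 0.05. Hlf is filled in all 5 settings, and Nfil3 is filled on opposite sides of 0, at 1.21 for ONX-0914 3 alone and -0.80 without that library.

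The order of levels changed between groups, mostly through the genes with wide spread. In ONX-0914 livers the order of the means was Dbp (41.3 ± 40.1 FPKM), Nfil3 (32.7 ± 29.0), Bhlhe40 (17.8 ± 12.2), Tef (8.39 ± 4.27), Ciart (4.45 ± 3.53), Hlf (2.89 ± 0.99), Usp2 (1.49 ± 0.60), Wee1 (0.40 ± 0.35) and Bhlhe41 (0.24 ± 0.24; SD, n = 3 each). Libraries of neighbouring genes overlapped in that order except between Hlf and Usp2 and between Usp2 and Wee1. In vehicle livers the order was Bhlhe40 (37.2 ± 5.44 FPKM), Nfil3 (28.0 ± 2.87), Tef (18.6 ± 8.36), Dbp (18.0 ± 12.9), Hlf (12.4 ± 1.48), Usp2 (3.67 ± 2.33), Wee1 (3.19 ± 2.3), Ciart (1.89 ± 1.47) and Bhlhe41 (0.40 ± 0.37; SD, n = 3 each). There, neighbours overlapped except Bhlhe40 with Nfil3 and Hlf with Usp2.

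Within the vehicle group 1 library was high for several members at once. Vehicle 2 had the highest vehicle value of Dbp, Tef, Bhlhe40, Ciart, Usp2 and Wee1, and the lowest of Hlf and Nfil3. It was also the highest vehicle library for Per2 and Per3 (5.22 and 4.40 FPKM) and the lowest for Arntl (4.83 FPKM). Vehicle 1 had 2.33 and 1.57 FPKM of Per2 and Per3 and 10.2 FPKM of Arntl, with the lowest Dbp, Tef, Ciart and Usp2 of the group. Vehicle 4 was lower still for Per2 and Per3 (1.8 and 1.56 FPKM), with Arntl between the others at 7.68 FPKM. Nr1d1 went the other way from Dbp, lowest in vehicle 2 (5.64 FPKM) and highest in vehicle 1 (12.8 FPKM). The part of sampling time in these vehicle values was not tested. The treated libraries showed no single such order: ONX-0914 1 was lowest for all members except Nfil3, whereas Dbp, Usp2 and Wee1 were highest in ONX-0914 4 and Nfil3, Ciart, Tef, Hlf, Bhlhe40 and Bhlhe41 in ONX-0914 3.

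**Figure D4:**
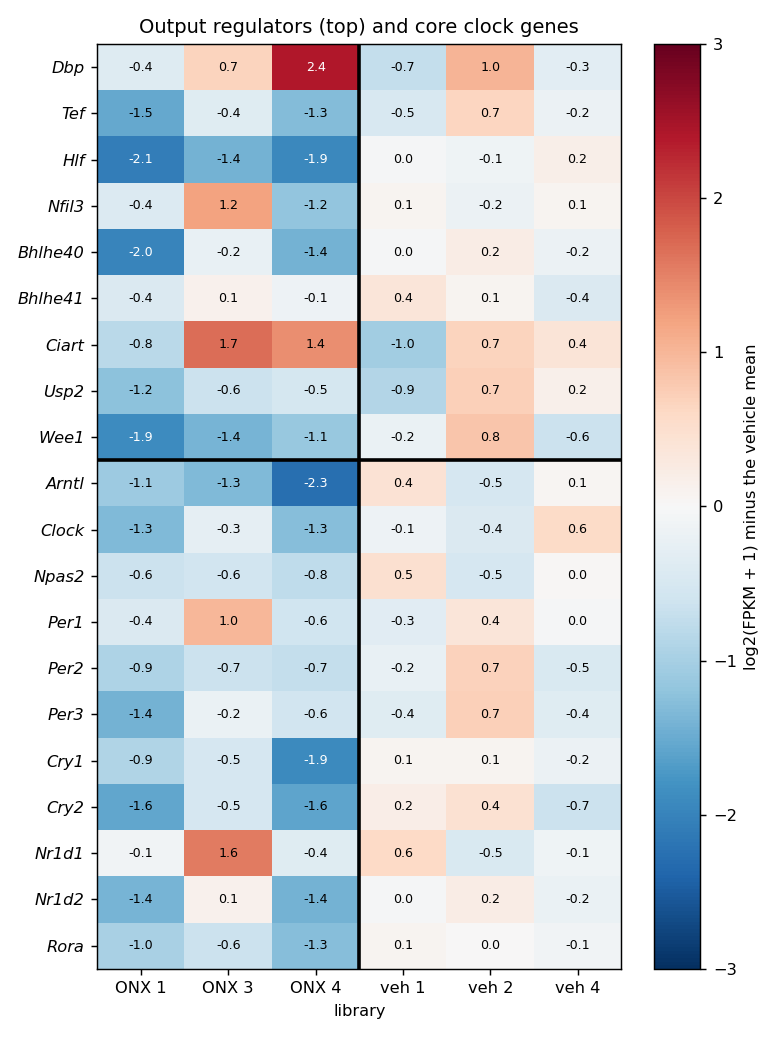
Deviation of log2(FPKM + 1) from the vehicle mean (colour and printed value) for the 9 output regulators above the black line and 11 core clock genes below it, in ONX-0914 libraries at left and vehicle libraries at right. Hlf and Arntl are blue in all 3 treated libraries, Nfil3 and Nr1d1 are red in ONX-0914 3, and Dbp is darkest red in ONX-0914 4.

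Of the 12 core clock genes, 11 were tested, and 6 fell and none rose as deposited (median log2 fold change -0.96), where 43.5% of all genes tested fell and 2.56% rose. Among them were Arntl (-1.56), Cry2 (-1.21), Cry1 (-1.11), Rora (-0.96) and Clock (-0.96). Rora passed the filter through vehicle libraries only, with 0.38, 0.72 and 0.11 FPKM in ONX-0914 1, 3 and 4, against 1.85, 1.73 and 1.51 FPKM in vehicle 1, 2 and 4. Under median-ratio scaling 2 of the 11 were lower (13.7% of all genes), and 1 once the length trend was taken out (11.4% of all genes).

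Of 14 genes linked to the PAR bZIP factors in mouse liver, 13 were tested, and 8 fell, 1 rose and 4 were not called (median log2 fold change -1.26, beside -0.64 over all genes). Of all genes tested, 43.5% fell and 2.56% rose. The acyl-CoA thioesterase genes Acot1 and Acot3 had log2 fold changes of -2.39 (SE 0.56, adjusted p = 0.00926 by limma) and -2.36 (SE 0.28, adjusted p = 0.00137 by limma). Acot3 had 0, 0.54 and 0 FPKM in ONX-0914 1, 3 and 4, against 6.30, 3.27 and 5.70 FPKM in vehicle 1, 2 and 4, and passed the filter through vehicle libraries only; the thioesterase genes resemble each other in sequence, so their separate values are uncertain. Cyp7a1, the rate-limiting enzyme of bile acid synthesis, had 9.95, 4.33 and 25.3 FPKM in ONX-0914 1, 3 and 4, against 35.3, 52.9 and 109 FPKM in vehicle 1, 2 and 4 (log2 fold change -2.38, SE 0.57, adjusted p = 0.0101 by limma). Lpl, lipoprotein lipase, Acot4 and Nr1i3, the xenobiotic receptor CAR, had log2 fold changes of -1.76, -1.67 and -1.42. Ppara, the fatty acid receptor gene, had 7.07, 14.8 and 10.7 FPKM in ONX-0914 1, 3 and 4, against 23.5, 31.6 and 24.5 FPKM in vehicle 1, 2 and 4. Ces3a, a carboxylesterase gene, was the 1 that rose (0.55, SE 0.19, adjusted p = 0.0396 by limma), a call lost when any 1 library other than ONX-0914 3 was left out. Those not called were Por (0.20, adjusted p = 0.656 by limma), the P450 reductase, Alas1 (0.00, adjusted p = 0.997 by limma), the first enzyme of haem synthesis, Cyp2a5 (0.44, adjusted p = 0.477 by limma) and Gstt1 (-0.28, adjusted p = 0.278 by limma). With median-ratio scaling 4 fell (Acot1, Acot3, Acot4 and Lpl) and Ces3a rose (13.7% and 14.3% of all genes), and taking out the length trend gave Acot1, Acot3, Lpl and Nr1i3 lower and Ces3a higher (11.4% and 9.68% of all genes).

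Of 13 other rhythmic liver genes, 12 were tested, and 5 fell, none rose and 7 were not called (median -0.67), near the shares of all genes (43.5% lower, 2.56% higher). Rgs16, a regulator of G protein signalling, fell most (-3.77, SE 0.54, adjusted p = 0.0019 by limma), and others that fell were Tsc22d3 (-1.77), the glucocorticoid-induced GILZ gene, Nampt (-1.27), of NAD salvage, and Gys2 (-1.09), liver glycogen synthase. Noct, the Nocturnin gene, was not called (-0.17, adjusted p = 0.839 by limma): it had 4.53, 26.5 and 2.91 FPKM in ONX-0914 1, 3 and 4, against 6.07, 10.7 and 9.12 FPKM in vehicle 1, 2 and 4, again highest in ONX-0914 3. With median-ratio scaling 1 fell (Rgs16) and 1 rose (Tspan4, at 1.43, adjusted p = 0.0273 by limma), against 13.7% and 14.3% of all genes.

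Clock protein turnover was represented by 11 genes of kinases, ubiquitin ligase parts and a protease that act on PER, CRY or REV-ERB proteins. As deposited 6 fell and none rose (median -0.96), beside 43.5% and 2.56% of all genes. Fbxw11 and Csnk1a1, a PER-directed ligase subunit and casein kinase 1 alpha, had log2 fold changes of -2.19 (SE 0.32, adjusted p = 0.00194 by limma) and -2.10 (SE 0.35, adjusted p = 0.00293 by limma). They were the 2 of this list still called with median-ratio scaling (-1.74 and -1.33) and with the length trend removed (-1.32 and -1.22), where 13.7% and 11.4% of all genes were lower. Csnk1d (-1.52), Usp7 (-1.29) and Btrc (-0.96) were called as deposited only, of these 3 scalings.

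Of 10 genes around WEE1 and CDK1, 7 were tested and 2 fell (43.5% of all genes did), Ccna2 (-1.40), cyclin A2, and Cdc25a (-0.80, and 0.0407 with the length trend removed), a phosphatase that opposes WEE1. Cdc25a had 0.17, 0.79 and 0.47 FPKM in ONX-0914 1, 3 and 4, against 1.08, 1.87 and 1.71 FPKM in vehicle 1, 2 and 4, so it passed the filter through vehicle libraries only. Ccna2 had 0.31, 0.37 and 1.05 FPKM in ONX-0914 1, 3 and 4, against 3.68, 3.01 and 2.64 FPKM in vehicle 1, 2 and 4, and its call was lost with the length trend removed (-0.67, adjusted p = 0.104 by limma). Cdk1, the target of WEE1, was not called (-0.58, adjusted p = 0.126 by limma). Pkmyt1, the related membrane kinase gene, was not called as deposited (0.36, adjusted p = 0.204 by limma). Under median-ratio scaling Pkmyt1 rose, at 0.82 (adjusted p = 0.0459 by limma), where 14.3% of all genes were higher. Pkmyt1 also rose once the length trend was taken out, at 0.88 (adjusted p = 0.0342 by limma), where 9.68% were higher. The sign of the median depended on the scaling: it was -0.58 as deposited, 0.10 with median-ratio scaling and 0.28 with the length trend removed.

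**Figure D5:**
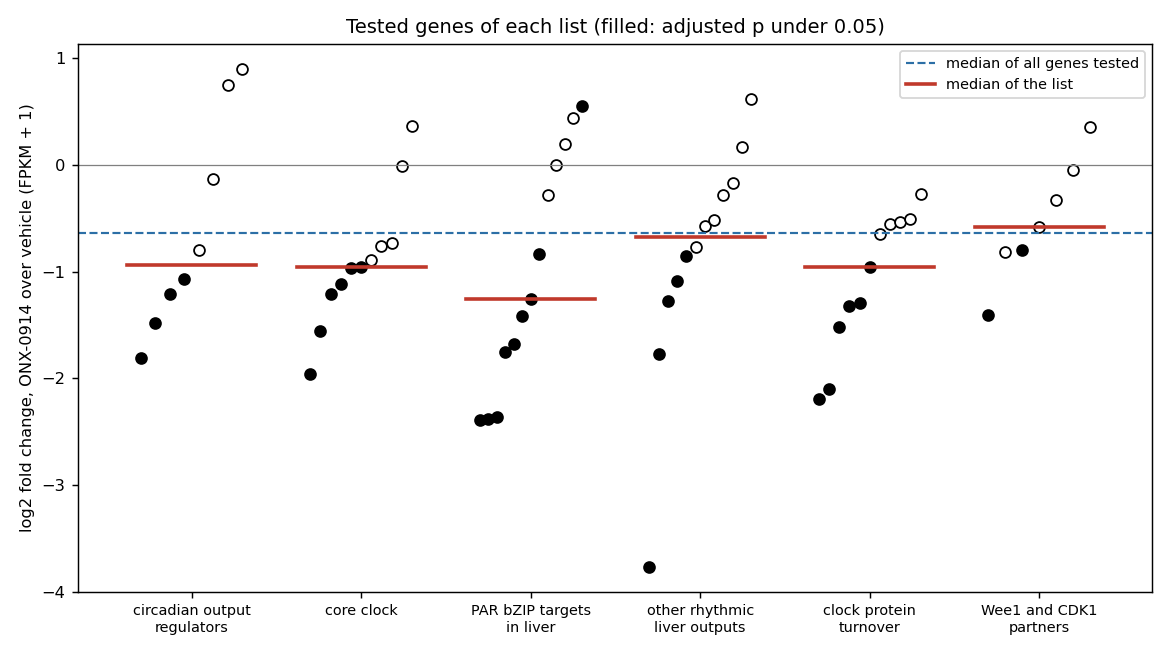
Log2 fold change of ONX-0914 over vehicle on the FPKM + 1 scale (vertical axis) for each tested gene of the output regulators and 5 related lists; filled points have a limma adjusted p under 0.05, red lines are list medians and the dashed line is the median of all genes tested (-0.64). The output regulators span -1.81 to 0.90 around a median of -0.93, and Rgs16 is the lowest point of all at -3.77.

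Among the genes most like Dbp over the 6 libraries, by the root mean square difference of their log2(FPKM + 1) deviations from the vehicle mean, were Hba-a2 (0.599) and Capn8 (0.643). Hba-a2, an alpha globin gene with a near-identical copy whose reads may be shared, had 0.77, 4.0 and 3.64 FPKM in ONX-0914 1, 3 and 4, against 0.32, 3.78 and 0.14 FPKM in vehicle 1, 2 and 4. For Nfil3 they were Gin1 (0.147), Nedd4l (0.183) and Tbc1d8 (0.197). Gin1 had 5.09, 16.55 and 2.83 FPKM in ONX-0914 1, 3 and 4, against 7.12, 7.16 and 6.18 FPKM in vehicle 1, 2 and 4, with the same library highest as for Nfil3.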

How the data were processed

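Liver mRNA was sequenced in 6 libraries, 3 per group, as paired reads of 150 bases per the design text. The authors deposited 1 matrix of 22851 genes, with values of 2 decimals read here as FPKM, a unit that the table and labels do not name; no source used here says whether reads or fragments were counted. Per the submitters' processing notes, which name tools without their roles, these were HISAT2 2.0.1 (an aligner), featureCounts 1.6.0 (a read counter), edgeR, cutadapt 1.11 and FastQC 0.11.5, with GRCm38 and mm10 as builds; their settings and the annotation are not given in the sources used here. Columns were matched to samples by title.

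Genes above 1 FPKM in at least 3 libraries (10743) were tested on log2(FPKM + 1) with limma 3.58.1 (R 4.3.3), a variance trend, no replicate block and Benjamini-Hochberg adjustment over all of them, with the threshold 0.05. The pseudocount of 1 shrinks the fold changes of low genes. Depth relative to vehicle 1 was estimated from ratios of low values, over only 9 to 17 genes per library. The value of 1 fragment came from steps between low values of short genes (0.2 to 0.7 kb in GENCODE M21). Fragments per gene came from FPKM, depth and exon length, so depths and fragments are approximate. Lengths for the trend were known for 97.6% of tested genes. The 15 alternatives were a pseudocount of 0.1, no filter, a mean of at least 1 FPKM, median-ratio and quantile scaling, removal of the length trend, the replicate block, a robust prior, each library left out, and ONX-0914 3 alone against vehicle. Exact permutation tests used scipy 1.17.1. The fit was tested on simulated data. Members, lists and alternatives were chosen with earlier results of these data known. Named genes were all members, up to 6 called genes per list, and the 3 nearest to Dbp and to Nfil3; some others are given beside them, chosen after their values were seen. A few genes that the rule would name are not reported here, though the counts include them.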

Additional observations from a re-analysis of the deposited data

How the results depend on the processing

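Hlf kept its direction and its call in all 15 alternatives, from -2.10 to -0.88 on the log2 scale. The 4 members called lower became 1 with median-ratio scaling, quantile normalization, the length trend removed or ONX-0914 3 alone, 2 with no filter on low values, and 2 to 5 without 1 library. Members called higher were 0 to 1 without 1 library and 1 (Nfil3) with ONX-0914 3 alone. Genes called lower (4673 in all) and higher (275) were 1471 and 1538 with median-ratio scaling, 1334 and 1118 with quantile normalization, 1227 and 1040 with the length trend removed, 2992 and 309 with ONX-0914 3 alone, and 2590 to 6514 and 92 to 740 without 1 library. Fewer samples enter the last 2, and the cause was not tested for any of these settings.

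Nfil3 changed sign to 0.65 with median-ratio scaling, 0.48 with quantile normalization, 0.39 with the length trend removed and 1.21 with ONX-0914 3 alone, and ran from -0.80 to 0.40 without 1 library (0.01 without ONX-0914 1). With the length trend removed, genes that changed sign included Usp2 and Cdc25a (0.0605 and 0.0407), Cdk1 (0.31), Noct (0.64), Per2 (0.16) and Per3 (0.19). The Dbp to Nfil3 ratio difference ran from -0.25 (without ONX-0914 4) to 1.81 without 1 library.

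The numbers 1 and 4 occur in both groups, but same-numbered libraries deviated together only weakly (correlations of 0.00113 and 0.13) and nothing states that they pair. With the number as a replicate block, where ONX-0914 3 and vehicle 2 have no partner and add nothing to the difference, 5973 genes were lower and 604 higher, and 5 members lower, Nfil3 among them (-0.89), and 1 (Dbp, at 1.53) higher. Wee1, Ciart and Bhlhe41 rest on few fragments in some libraries.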
